A study of Mus musculus with 39 samples.

Results

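Whole dorsal root ganglia (DRG) of the fifth and the first lumbar level were compared in adult wild-type mice kept in cages without a running wheel. The samples were chosen by their titles, 3 arrays of L5 and 3 of L1, which are 6 of the 39 arrays of the series, and every probe set except the array's own controls was followed in both directions. By the labels these mice were wild type on a 129/C57Bl6 background, adult, and had no physical exercise. By the methods the wheel experiment used male C57Bl6 mice that were 5 weeks old at the start, and the mice without wheels were littermates kept for 5 weeks in otherwise identical cages. A TrkC sign in the titles of the adult samples was ignored, because these are whole ganglia and not sorted cells. The other arrays used beside them were 6 of whole L5 and L1 DRG from mice that had a wheel for 5 weeks, 11 of cells sorted from L5 and L1 of newborn (P0) TrkCGFP mice, and 16 of cells sorted from pooled lumbar ganglia of newborns. In TrkCGFP mice a BAC transgene places GFP under the regulatory elements of TrkC, and the cells with GFP are called TrkC-positive here and those without it TrkC-negative. Of the 16 pooled arrays, the 4 of TrkCGFP mice without a further allele gave the comparison of TrkC-positive with TrkC-negative cells, and those of Bax-/-, NT3-/- Bax-/- and MlcNT3 mice, which also carried TrkCGFP, only added to the estimate of the spread.

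A DRG holds the cell bodies of the sensory neurons of one spinal segment. Proprioceptors carry TrkC, the receptor of neurotrophin-3, and report muscle length and tension, nociceptors report noxious and itching stimuli, and low-threshold mechanoreceptors (LTMRs) report touch. The L5 ganglion serves the hindlimb with its many muscles, whereas the L1 ganglion serves the trunk and groin, so that the ganglia differ in the tissues their neurons reach as well as in their position along the body axis. In whole ganglia, fewer cells of a type and less RNA per cell cannot be told apart.

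All 6 arrays carried the transcripts of sensory neurons. *Isl1*, a transcription factor of DRG neurons, had normalised intensities of 2884, 3287 and 3549 at L1 and 3243, 3459 and 3500.1 at L5, and *Prph*, the intermediate filament peripherin, had 4801, 5408 and 5322 and 5187, 5008 and 5137. Arrays within a level correlated at 0.994 or above, and no 2 of the adult arrays held identical values. Markers of other tissues were uneven among the L5 arrays. The summed intensity of 16 skeletal muscle genes was 1299 to 1718 on the L1 arrays and 2801, 2981 and 11040 on L5 arrays 1, 2 and 3. These genes include *Pvalb*, which proprioceptors also make. Its values, given below, were a large part of each of these sums except that of L5 array 3. The sum of 14 genes of lymphocytes and other leukocytes was 2397 to 3398 at L1 and 2782, 6898 and 3935 at L5, that of 18 macrophage genes was 5059 to 6242 at L1 and 6597, 11545 and 7588 at L5, and that of 21 connective tissue genes was 21314 to 23115 at L1 and 24414, 36811 and 26577 at L5. L5 array 3 thus stood apart in muscle transcripts and L5 array 2 in leukocyte and connective tissue transcripts, and results that these arrays touch are given also without them.

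**Figure D1:**
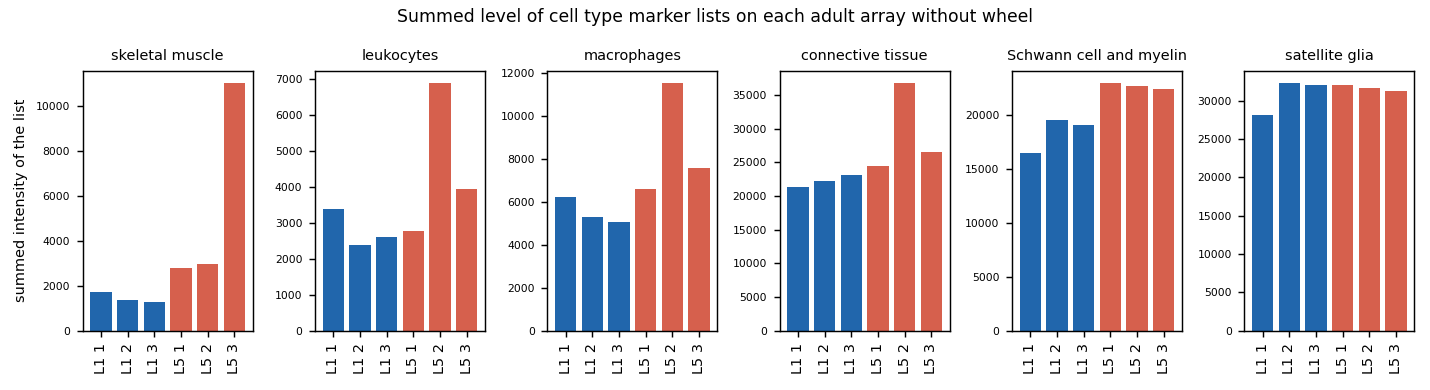
Summed normalised intensity (linear scale) of 6 marker lists on each of the 6 adult arrays without wheel, 1 bar an array, blue for L1 and red for L5. Muscle genes, which include *Pvalb* of proprioceptors, reached 11040 on L5 array 3. Leukocyte, macrophage and connective tissue genes were highest on L5 array 2, whereas satellite glia genes lay between 28123 and 32300 on all 6 arrays.

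The level comparison was tested with limma on log2 intensities, in one fit of all 12 adult arrays, and Benjamini-Hochberg adjustment ran over the 45037 probe sets tested, of which those with an adjusted p under 0.05 were called. Of these, 866 were higher at L5 (1.92%) and 1241 were lower (2.76%). The former named 596 genes and the latter 986. Most differences were small, with a median size of 0.51 on the log2 scale among the called probe sets, but 130 probe sets were at least 2-fold higher and 41 at least 2-fold lower at L5. With the study's thresholds for adult ganglia (p up to 0.02 before adjustment, and 1.5 fold or more), the limma fit gave 597 higher and 347 lower probe sets. The t-test of the methods gave 232 and 259 at these thresholds. Neither is the count of the study, which used an ANOVA. Of the called probe sets, 99.1% of the higher and 99.3% of the lower had no overlap between the 3 L5 and the 3 L1 arrays, against 21.6% of all probe sets. This separation follows largely from the call, which rests on the same arrays, and is no further evidence. Nothing in the labels says that the 3 arrays of a level came from separate mice, so p-values measure the spread between these arrays only. Without L5 array 2, 583 probe sets were higher and 715 lower, of which 511 and 634 were among the calls of all arrays. Without L5 array 3 there were 468 and 496 (437 and 483 among the calls of all arrays), and without both 177 and 133, of which 144 and 124 were among the calls of all arrays. The last count rests on a single L5 array that is assumed to vary like the other groups.

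Hox genes set the position of cells along the body axis, and higher paralog groups mark more posterior segments. *Hoxc10*, a Hox gene of lumbar segments, had the smallest p-value among the rises. Its intensities were 57.6, 50.4 and 36.9 at L1 and 434, 357 and 303 at L5, which is 7.59 fold higher at L5 (log2 difference 2.92, standard error 0.15, limma adjusted p = 9.14e-08). *Hoxa10*, its paralog of the same group, had 171, 197 and 147 at L1 and 636, 543 and 571 at L5 (log2 difference 1.77, standard error 0.11, adjusted p = 4.1e-07). The lowest L5 array of each gene was far above the highest L1 array, and neither gene lost its call when any array was left out. *Hoxd10*, the remaining gene of the group on the arrays, had 32.1, 38.1 and 28.4 at L1 and 161, 113 and 35.3 at L5. Its L5 array 3 lay within the L1 range, and its log2 difference of 1.40 did not pass the test (standard error 0.39, adjusted p = 0.0523). Without that array, the one with the muscle transcripts, the difference was 2.05 (adjusted p = 0.000335).

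Other Hox genes differed less. Of 14 measured genes of groups 9 to 13, 4 were higher at L5 and none lower, with a median of 0.32, while over all 18194 genes with a probe set of their own, 477 were higher (2.62%) and 647 lower (3.56%), with a median of -0.019. Without L5 array 2 there were 338 and 427 such genes, and without L5 array 3 there were 279 and 286. These counts over all genes are the background for every list below. Of the 14 Hox genes, 2 were called higher without L5 array 2, and 3 were without L5 array 3, *Hoxd10* among them. On all arrays the 4 were, beside *Hoxc10* and *Hoxa10*, *Hoxa9*, with a log2 difference of 0.47 (adjusted p = 0.0335), and *Hoxb9*, with 0.34 (adjusted p = 0.0432). Both were close to the threshold. With 1 array left out, the call ended for *Hoxa9* without L1 array 1 or 3 or L5 array 1, 2 or 3 (adjusted p up to 0.123), *Hoxb9* without L1 array 1 or 2 or L5 array 1, 2 or 3 (adjusted p up to 0.175), and *Hoxc8* without L5 array 3 (adjusted p = 0.0558). The 7 measured genes of groups 11 to 13 had log2 differences of -0.085 to 0.36 and none was called. Of 19 measured genes of groups 1 to 8, *Hoxc8* was higher (307, 359 and 345 at L1 and 402, 582 and 603 at L5, log2 difference 0.63, adjusted p = 0.00972) and *Hoxd1* was lower (657, 772 and 806 at L1 and 508, 428 and 476 at L5, log2 difference -0.66, adjusted p = 0.00188). *Hoxd1* is the Hox gene of the first paralog group that is known from nociceptors of the mouse. *Hoxc5* was called higher with 1 of its 3 probe sets, which was not its brightest. With the mean of a gene's probe sets, 3 genes of groups 1 to 8 were higher and 1 lower. In the genome *Hoxc8*, *Hoxc9* and *Hoxc10* lie next to each other, and *Hoxc9* between them had a log2 difference of 0.25 (adjusted p = 0.179).

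**Figure D2:**
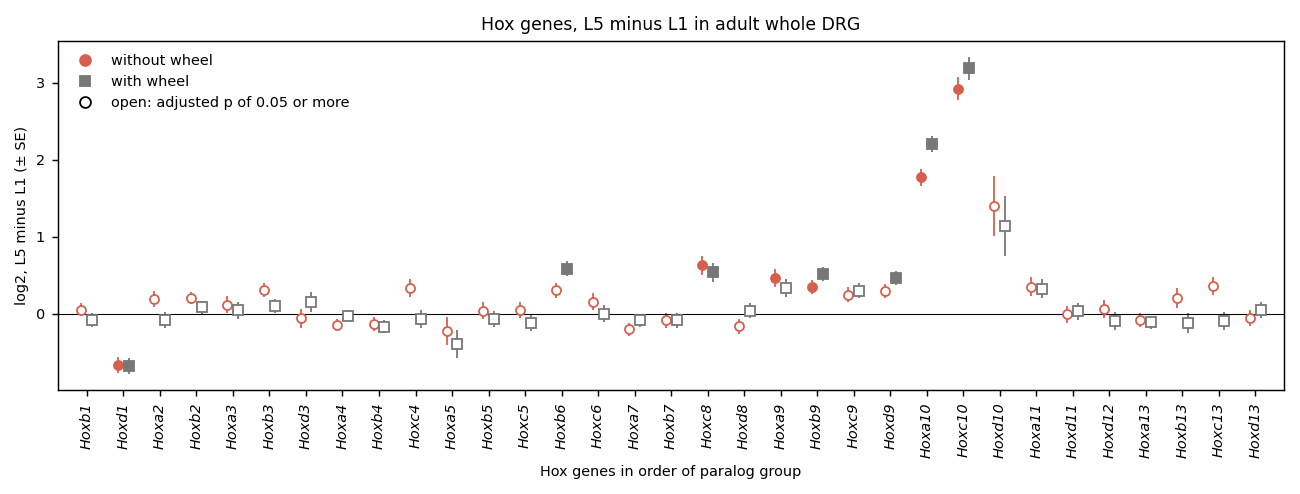
Log2 difference of L5 minus L1 for each measured Hox gene in order of paralog group, in adult whole DRG without wheel (red circles) and with wheel (grey squares), with limma standard errors and filled symbols for an adjusted p under 0.05. *Hoxc10* and *Hoxa10* lie at 2.92 and 1.77 without wheel and at 3.19 and 2.20 with wheel, and *Hoxd1* is the gene below 0 that was called in both.

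Of 37 other measured patterning transcription factors, 6 were higher at L5 and none lower, with a median of 0.11. *Zic1*, a zinc finger factor of dorsal neural tissue and of meninges, had 439, 442 and 533 at L1 and 764, 1798 and 1019.9 at L5 (log2 difference 1.25, adjusted p = 0.0125), with its highest value on the array that was rich in connective tissue transcripts. *Zic5*, *Foxp2* and *Irx3* were higher by 0.85, 0.81 and 0.78 on the log2 scale. *Zic1* lost its call without L1 array 2 (adjusted p = 0.0567). *Zic5* lost its call without L1 array 2 or L5 array 2 (adjusted p up to 0.0609). None of the 37 was called on the remaining L5 array when arrays 2 and 3 were left out, and the 6 counted above were 4 when either was left out alone.

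Markers of proprioceptors were among the genes that rose at L5. Of 13 measured markers, 8 rose and none fell, with a median of 0.63. *Pvalb*, which encodes the calcium buffer parvalbumin of proprioceptors, had 900.0, 842 and 743 at L1 and 1373, 1537 and 1884 at L5 (log2 difference 0.94, standard error 0.12, adjusted p = 0.000311). Fast skeletal muscle also makes parvalbumin, and the value was highest on the L5 array that held muscle transcripts. Without that array the log2 difference was 0.81 (adjusted p = 0.00149), and L5 array 1 alone, without arrays 2 and 3, gave 0.73 (adjusted p = 0.0302). *Chodl*, which encodes the membrane lectin chondrolectin, had 81.5, 69.9 and 74.7 and 265, 329.7 and 259.8 (log2 difference 1.91, adjusted p = 6.91e-06), and *Vstm2b*, an immunoglobulin domain protein, had 90.8, 111 and 83.8 and 251, 202 and 371 (log2 difference 1.49, adjusted p = 0.000265). For both, every L5 array lay above every L1 array. *Pth1r*, the parathyroid hormone receptor, *Calb2*, the calcium buffer calretinin, *Esrrg*, an orphan nuclear receptor, and *Slc17a7*, the vesicular glutamate transporter VGLUT1, were higher by 0.88, 0.89, 0.63 and 0.54. The call was lost for *Calb2* without L1 array 1 or L5 array 3 (adjusted p up to 0.124), *Esrrg* without L1 array 1 or 2 or L5 array 1 or 3 (adjusted p up to 0.138), and *Slc17a7* without L1 array 1, 2 or 3 or L5 array 1 or 3 (adjusted p up to 0.179). Without L5 array 3, and also without both L5 arrays 2 and 3, 5 of the markers were called.

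*Gabrg1*, the gamma-1 subunit of the GABA-A receptor, was measured by 2 probe sets. The brighter one had 113, 180.1 and 191 at L1 and 506, 519 and 543 at L5, a 3.32 fold difference (log2 1.73, standard error 0.16, adjusted p = 2.36e-05). The dimmer one had 27.1, 31.7 and 34.2 and 86.7, 73.0 and 87.9 (log2 1.41, standard error 0.12, adjusted p = 8.8e-06). The lowest L1 value of the brighter probe set was on array 1, and the 3 L5 arrays were close to each other. The gene lies beside *Gabra2*, *Gabra4* and *Gabrb1*, which encode further subunits of the same receptor, in one cluster of the mouse genome. *Gabrb1* went the other way, with 459.7, 509 and 531 at L1 and 333, 336 and 317 at L5 (log2 difference -0.60, adjusted p = 0.00265), and *Gabra2* and *Gabra4* had differences of 0.19 and 0.072 with their brightest probe sets that did not pass the test (adjusted p = 0.277 and 0.858). Of 15 measured GABA-A subunits 2 were higher, *Gabrg1* and *Gabra5* (by 0.41), and 2 lower, *Gabrb1* and *Gabrg3*, the latter with a log2 difference of -0.37 at intensities of 35.7, 35.7 and 36.6 and 26.6, 26.2 and 30.9. *Gabra5* lost its call without L1 array 1, 2 or 3 or L5 array 1 or 2 (adjusted p up to 0.098). *Gabrg3* lost its call without L1 array 1, 2 or 3 or L5 array 1 or 2 (adjusted p up to 0.101). The 250 bases upstream of the *Gabrg1* start, shown because this gene had the largest rise of the receptor genes listed here, are on the minus strand at chr5:70842618-70842867 (RefSeq, GRCm38.p6), with any GC box (GGGCGG, or CCGCCC for the other strand) or TATA box (TATAAA, or TTTATA) in capitals:
Gabrg1: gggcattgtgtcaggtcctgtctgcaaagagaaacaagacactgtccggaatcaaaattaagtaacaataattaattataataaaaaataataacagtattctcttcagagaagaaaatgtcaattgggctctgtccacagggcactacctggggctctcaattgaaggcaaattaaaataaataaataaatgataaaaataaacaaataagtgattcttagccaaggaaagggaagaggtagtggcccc
The window held neither motif and 35.6% of its bases were G or C. Of all 32851 promoter windows of this length in the RefSeq set, 32.7% held a GC box and 12.4% a TATA box.

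The TrkC receptor itself was not called. *Ntrk3*, which encodes TrkC, had 195, 237 and 243 at L1 and 275, 217 and 252 at L5 with its brightest probe set (log2 difference 0.14, standard error 0.11, adjusted p = 0.573), and none of its 8 probe sets passed the test. *Runx3*, which directs the development of proprioceptors, had a log2 difference of 0.10 (adjusted p = 0.61). *Ntrk2*, the BDNF receptor TrkB, and *Ret*, the signalling receptor of the GDNF family, had differences of -0.31 (adjusted p = 0.147) and -0.29 (adjusted p = 0.262) with their brighter probe sets, and a dimmer probe set of *Ret* was called lower (log2 difference -0.48, adjusted p = 0.0238). *Ret* lost its call without L1 array 2 or 3 or L5 array 2 or 3 (adjusted p up to 0.116). Of 14 markers of myelinated LTMRs, *Shox2* and *Maf*, both transcription factors of touch neurons, were higher by 0.81 and 0.48, and *Baiap2l1* was lower (log2 difference -0.49), with a median of the list of 0.0060 (-0.0087 without L5 array 3). *Baiap2l1* lost its call without L1 array 2 or 3 or L5 array 2 (adjusted p up to 0.0703).

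The probe sets called in the adult were looked up in the sorted cells of newborns, which share no array with them. There, 7.17% of all probe sets were higher in TrkC-positive than in TrkC-negative cells at the study's thresholds (p up to 0.02 before adjustment and 1.5 fold or more), and 5.55% were lower. These thresholds are not those of the adult calls, which had an adjusted p under 0.05. Of the 866 probe sets that were higher in adult L5, 289 (33.4%) were of the TrkC-positive kind and 45 (5.2%) of the other. Of the 1241 that were lower in adult L5, 117 (9.43%) were of the TrkC-positive kind and 275 (22.2%) of the TrkC-negative kind. Leaving out any of the 6 adult arrays gave TrkC-positive shares of 23.9% to 40.6% for the higher and 7.46% to 11.7% for the lower probe sets. *Gabrg1*, *Vstm2b* and *Pvalb* were higher in newborn TrkC-positive than TrkC-negative cells by 4.53, 3.85 and 7.02 on the log2 scale. *Slit2*, a guidance ligand, *Pcdh8*, a protocadherin, and *Fgf9*, a growth factor, which rose in adult L5, were also higher there, by 4.34, 4.56 and 5.17.

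Some markers of unmyelinated neurons fell at L5. The list of peptidergic nociceptor markers was mixed and also held genes of itch neurons, among them *Sst*, *Cysltr2*, *Nppb* and *Il31ra*. Of its 16 measured genes, 9 were lower and none higher, with a median of -0.49. Without L5 array 3, 7 were lower (median -0.48), and without L5 array 2, 9 were (median -0.54). *Gal*, the neuropeptide galanin, had 752, 721 and 533 at L1 and 261, 291 and 255 at L5 (log2 difference -1.30, standard error 0.12, adjusted p = 3.36e-05). *Sst*, the peptide somatostatin of itch neurons, had 171, 164 and 137 and 64.3, 72.4 and 55.0 (log2 difference -1.30, standard error 0.12, adjusted p = 3.4e-05). In both genes all L5 arrays lay below all L1 arrays by a wide margin. *Cysltr2*, a leukotriene receptor of the same neurons, had 174, 188 and 219.8 and 101, 78.7 and 40.8 (log2 difference -1.49, adjusted p = 0.00179). *Nppb*, the itch peptide, had 1171, 1158 and 1133 and 560.1, 1005 and 470.4 (log2 difference -0.85, adjusted p = 0.0216). L5 array 2 of *Nppb* was only slightly below the L1 arrays. *Nppb* lost its call without L1 array 1, 2 or 3 or L5 array 3 (adjusted p up to 0.1). *Trpv1*, the capsaicin receptor, fell by 0.68 and *Il31ra*, an interleukin-31 receptor subunit, by 0.55. *Tac1*, which encodes substance P, and *Scn10a*, the sodium channel Nav1.8, had differences of -0.025 (adjusted p = 0.939) and -0.29 (adjusted p = 0.125).

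Of 10 markers of nonpeptidergic nociceptors 3 were lower and none higher, with a median of -0.30 (-0.20 without L5 array 3, with 3 still called). These were *Trpa1*, the irritant channel, with 2438, 2841 and 2614 at L1 and 1590.2, 1464 and 1299.7 at L5 (log2 difference -0.86, standard error 0.097, adjusted p = 0.000152), *Lpar3*, a lysophosphatidic acid receptor, with -0.87 (adjusted p = 0.00496), and *Agtr1a*, the angiotensin receptor, with -0.72 (adjusted p = 0.00185). Of 10 markers of C-LTMRs, the unmyelinated touch neurons of hairy skin, 4 were lower and none higher, with a median of -0.37. *Th*, which encodes tyrosine hydroxylase and marks these neurons in adult DRG, had 1449, 1507 and 1514 at L1 and 768, 847 and 574 at L5 (log2 difference -1.05, standard error 0.12, adjusted p = 0.000223). *Tafa4*, a secreted protein of C-LTMRs, had 1754, 2083 and 2146 and 1299.5, 1382 and 782 (log2 difference -0.83, adjusted p = 0.012). Both were lowest on L5 array 3, but the other 2 L5 arrays also lay below L1. *P2ry1*, a purinergic receptor, and *Zfp521*, a zinc finger factor, fell by 0.63 and 0.45. When 1 array was left out, the call ended for *P2ry1* without L1 array 1, 2 or 3 or L5 array 2 or 3 (adjusted p up to 0.19), *Zfp521* without L1 array 2 or 3 or L5 array 2 or 3 (adjusted p up to 0.15), and *Tafa4* without L1 array 2 or 3 (adjusted p up to 0.0567). Of the 10 C-LTMR markers 2 were called without L5 array 2 and 2 without L5 array 3. Sympathetic neurons also make *Th*. Among 11 measured genes of sympathetic neurons it was the only one called. *Dbh*, the enzyme that makes noradrenaline, had 158, 134 and 149 and 143, 155 and 188, and *Slc6a2*, the noradrenaline transporter, had 76.1, 96.1 and 85.9 and 76.0, 69.1 and 86.6, with overlap between the levels for both.

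**Figure D3:**
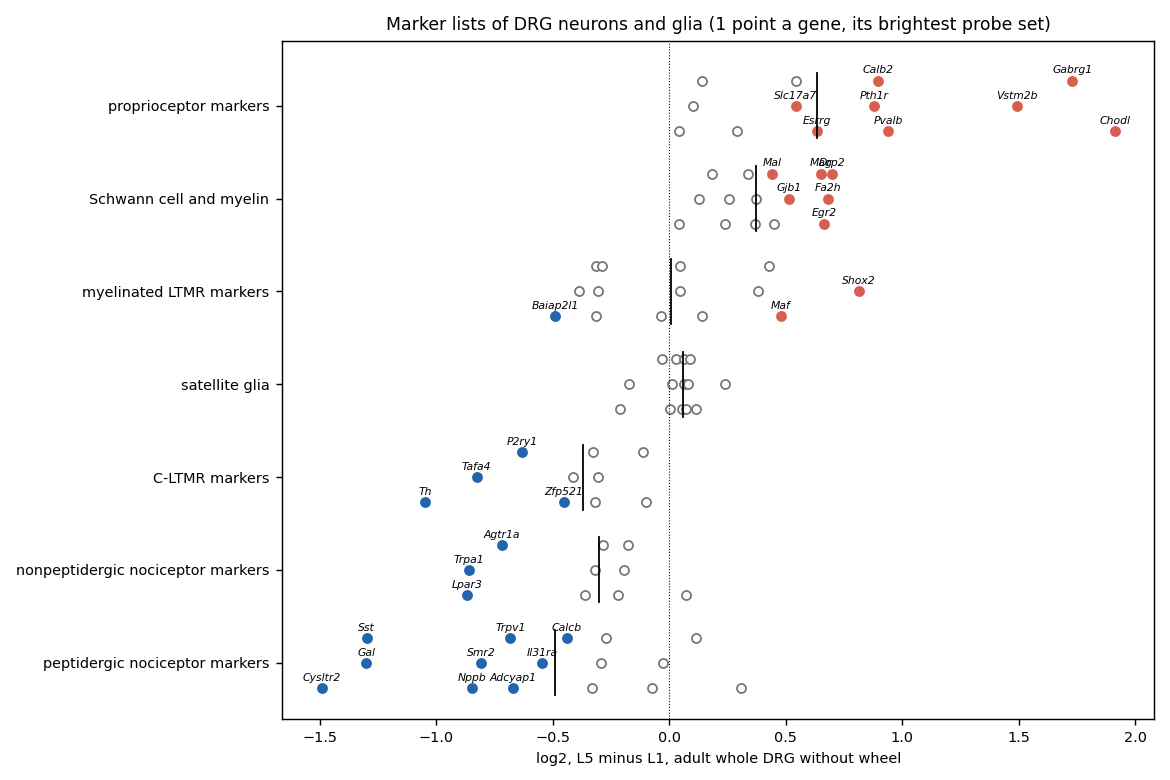
Log2 difference of L5 minus L1 in adult whole DRG without wheel for each measured gene of 7 marker lists of DRG neurons and glia, with called genes filled and named (red higher, blue lower), open circles for genes that were not called and a black line at the median of each list. Called proprioceptor and myelin genes lie to the right of 0. Called genes of the peptidergic (which also holds itch neuron genes), nonpeptidergic and C-LTMR lists lie to the left.

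The largest falls were in nicotinic acetylcholine receptor subunits. *Chrna3*, the alpha-3 subunit, had 597, 604 and 483 at L1 and 99.4, 93.2 and 81.9 at L5, 6.12 fold lower at L5 (log2 difference -2.61, standard error 0.13, adjusted p = 9.14e-08). A second probe set had 587, 594 and 458 and 166, 122 and 123 (log2 difference -2.0, adjusted p = 5.19e-07), and the remaining, dim one was not called. *Chrnb4*, the beta-4 subunit, which forms a receptor with alpha-3, had 313, 299 and 226 and 70.7, 67.1 and 68.7 (log2 difference -2.01, standard error 0.14, adjusted p = 1.65e-06). All L5 values of both genes were well under the lowest L1 value, and both calls held when any array was left out. *Chrna5*, which lies beside *Chrna3* and *Chrnb4* in one cluster, was dim at both levels, with at most 14.3 at L1 and 16.2, 13.3 and 16.7 at L5 (log2 difference 0.22, adjusted p = 0.268). *Chrna6* and *Chrnb3*, another subunit pair, fell by 0.79 and 0.53. *Chrnb3* lost its call without L1 array 2 or L5 array 2 (adjusted p up to 0.0879). *Lypd1*, a small membrane protein of the family that modulates nicotinic receptors, had 135, 176 and 184 at L1 and 75.3, 62.3 and 57.6 at L5 (log2 difference -1.34, adjusted p = 4e-05). The 250 bases upstream of the *Chrna3* start, shown because this gene had the largest fall, are on the minus strand at chr9:55026563-55026812 (RefSeq, GRCm38.p6), with the same motifs in capitals:
Chrna3: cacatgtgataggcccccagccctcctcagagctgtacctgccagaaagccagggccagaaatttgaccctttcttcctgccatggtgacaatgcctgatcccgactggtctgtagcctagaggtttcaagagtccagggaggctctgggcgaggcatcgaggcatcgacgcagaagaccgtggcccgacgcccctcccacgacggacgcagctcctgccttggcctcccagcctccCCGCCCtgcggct
This window held 1 GC box near its end, no TATA box, and 63.2% G or C.

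Of 31 measured receptors for serotonin, acetylcholine and peptides, 6 were higher (19.4%, against 2.62% of all genes) and 8 lower (25.8%, against 3.56%). Without L5 array 3 there were 1 higher and 8 lower, and without L5 array 2 there were 4 and 7. *Galr1*, a galanin receptor, fell together with its ligand, from 98.5, 107 and 82.3 at L1 to 37.8, 38.9 and 38.9 at L5 (log2 difference -1.31, adjusted p = 0.00065). *Cckar*, *Npy2r* and *Tacr3*, receptors for cholecystokinin, neuropeptide Y and neurokinin B, fell by 0.80, 0.80 and 0.71, whereas *Npy1r*, another receptor for neuropeptide Y, rose by 0.64 and *Htr2c*, a serotonin receptor, by 0.83. *Npy1r* lost its call without L1 array 1 or 3 or L5 array 1 or 3 (adjusted p up to 0.1). *Htr2c* lost its call without L1 array 2 or L5 array 3 (adjusted p up to 0.0623). Of 27 neuropeptide genes 6 were lower, among them *Cartpt* with 464, 404 and 271 at L1 and 167, 237 and 169 at L5 (log2 difference -0.98, adjusted p = 0.00642), and 1 was higher. That was *Penk*, the precursor of the enkephalins, with 130.2, 104 and 92.2 and 164, 327 and 251 (log2 difference 1.15, adjusted p = 0.00376), whose highest value was on L5 array 2.

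In the ion channel lists more genes were called lower than higher. Of 41 potassium channel genes 10 were lower (24.4%, against 3.56% of all genes) and 1 higher (2.44%, against 2.62%), with a median of -0.089. *Kcnk2*, the 2-pore channel TREK-1, had 1082, 1359 and 1122 at L1 and 626, 562 and 560.3 at L5 (log2 difference -1.02, standard error 0.12, adjusted p = 0.000265), and *Kcng2* and *Kcna4*, subunits of voltage-gated channels, fell by 0.75 and 0.67. The one that rose was *Kcnip1*, an auxiliary subunit of Kv4 channels, with 408, 419 and 439 and 779, 622 and 705 (log2 difference 0.73, adjusted p = 0.00053). Without L5 array 3 the count of lower potassium channel genes was 5, and without L5 array 2 it was 8 with a median of -0.050. Of 11 sodium channel genes, *Scn8a*, which encodes Nav1.6 of myelinated axons, rose by 0.63, and *Scn3b* and *Scn3a* fell by 0.59 and 0.51. Of 18 calcium and HCN channel genes, *Cacna1e*, the R-type channel, *Cacna1h*, a T-type channel of C-LTMRs and other sensory neurons, and *Hcn3* fell by 0.96, 0.62 and 0.43. Of 21 glutamate receptor genes 5 were lower, *Gria1*, an AMPA receptor subunit, by 0.83, and *Gria4*, another, was higher by 0.49. *Shisa6*, an auxiliary protein of AMPA receptors, had 169.6, 153 and 112 at L1 and 75.2, 50.6 and 34.0 at L5 (log2 difference -1.50, adjusted p = 0.00166). The call was lost for *Scn8a* without L1 array 1 or 2 or L5 array 3 (adjusted p up to 0.103), *Scn3a* without L1 array 2 or 3 or L5 array 3 (adjusted p up to 0.105), *Hcn3* without L1 array 1, 2 or 3 or L5 array 2 or 3 (adjusted p up to 0.177), and *Gria4* without L1 array 1, 2 or 3 or L5 array 1 or 3 (adjusted p up to 0.193). Of the glutamate receptor genes 3 were lower without L5 array 3.

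Other genes among the 20 largest falls had less known places in DRG. *Mrap2*, an accessory protein of melanocortin receptors, had 474, 550.1 and 447 at L1 and 143, 103 and 168 at L5 (log2 difference -1.85, standard error 0.15, adjusted p = 6.91e-06). *Cbln1*, a secreted synapse organiser, fell by 1.29, *Gadl1*, a decarboxylase, by 1.29, *Hpcal4*, a neuronal calcium sensor, by 1.28, and *Ada*, adenosine deaminase, by 1.20. *Ttc29*, *Tc2n*, *Cracdl*, *Krt25* and *S100a7l2* fell by 1.61, 1.49, 1.11, 1.10 and 1.24. *Kcnip4*, a further Kv4 auxiliary subunit, was called with 1 of its 3 probe sets (516, 744 and 804 at L1 and 467, 297 and 217 at L5, log2 difference -1.12, adjusted p = 0.0123), and its brightest probe set was not called. *Kcnip4* lost its call without L1 array 2 or 3 or L5 array 3 (adjusted p up to 0.0609). Of the 20 genes, 20 were called without L5 array 2, 19 without L5 array 3 and 17 without both.

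Some genes of myelinating Schwann cells rose at L5. Of 15 measured 6 were higher and none lower, all 15 had positive differences, and the median was 0.37. *Drp2*, a myelin membrane scaffold, had 444, 547 and 483 at L1 and 818, 788 and 781 at L5 (log2 difference 0.70, adjusted p = 0.000996). *Fa2h*, which makes myelin lipids, *Egr2*, the transcription factor of myelination, and *Mag*, an adhesion protein of myelin, were higher by 0.68, 0.66 and 0.65. *Mbp*, myelin basic protein, had 3644, 4553 and 4511 and 5787, 5641 and 5812 with no overlap but did not pass the test (log2 difference 0.45, adjusted p = 0.0891). *Egr2* lost its call without L1 array 1 or L5 array 3 (adjusted p up to 0.0677). *Mag* lost its call without L1 array 1 or 3 or L5 array 1 or 3 (adjusted p up to 0.106). Without L5 array 3, 3 genes of the list were called. Of 14 genes of satellite glia, the cells that wrap the neuron bodies, none was called, with differences of -0.21 to 0.24.

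Adhesion and guidance genes were among those that changed. Of 24 cadherins and protocadherins 6 were higher and none lower, and the count stayed at 6 without L5 array 2 and without L5 array 3. *Pcdh8* had 286, 401 and 347 at L1 and 836, 934 and 1204 at L5 (log2 difference 1.52, standard error 0.14, adjusted p = 2.9e-05). *Pcdh11x* had 176, 204 and 199 and 429, 468 and 497 (log2 difference 1.27, adjusted p = 1.65e-06), and *Pcdh18* and *Pcdh19* were higher by 1.00 and 0.99. Of 51 guidance genes 6 were higher and 6 lower (11.8% each, against 2.62% and 3.56% of all genes). Without L5 array 2 these counts were 4 and 2, and also 4 and 2 without L5 array 3. *Slit2* had 330.2, 477 and 488 at L1 and 941, 1045 and 1108 at L5 (log2 difference 1.28, adjusted p = 4.03e-05), and *Unc5c* and *Unc5d*, receptors for netrins, went in opposite directions, by 0.76 and -1.24. Of 24 neurotrophin, GDNF and other growth factor genes, *Fgf7*, *Fgf9* and *Igf1* were higher by 0.86, 0.81 and 0.80, and *Gfra3*, the artemin receptor of nociceptors, was lower (log2 difference -0.62). Without L5 array 2 or L5 array 3, 2 of the 3 were called. *Igf1* was highest on L5 array 2. *Igf1* lost its call without L1 array 1, 2 or 3 or L5 array 2 or 3 (adjusted p up to 0.0953).

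**Figure D4:**
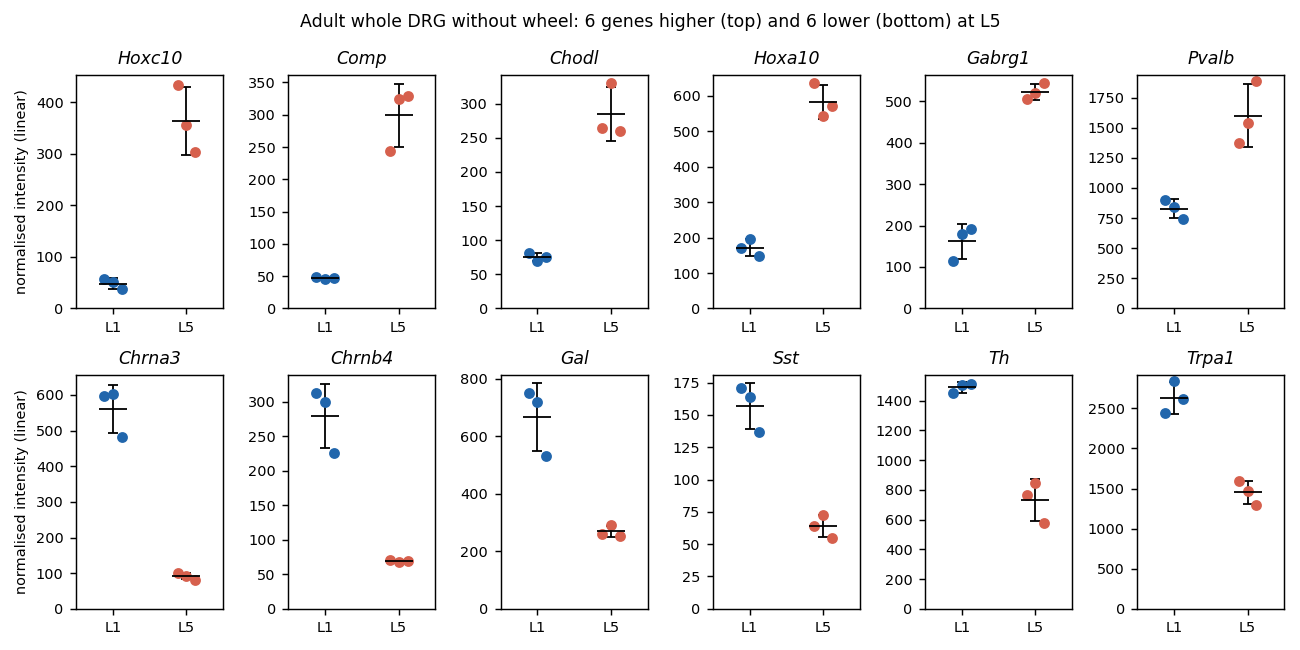
Normalised intensity (linear scale, axes from 0) of 12 genes on each adult array without wheel, blue points for the 3 L1 arrays and red points for the 3 L5 arrays, with the mean and SD in black. The upper row holds genes higher at L5 and the lower row genes lower at L5, and in none of the 12 do the levels overlap.

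The largest rises were of several kinds. *Comp*, a matrix protein of cartilage and tendon, was even across arrays, with 48.5, 45.2 and 47.9 at L1 and 243, 325 and 328 at L5 (log2 difference 2.65, standard error 0.16, adjusted p = 4.1e-07). *Tll1*, a metalloprotease, *Thrsp*, a lipogenic protein, and *Pdgfd*, a growth factor, were likewise even, with 84.7, 74.7 and 90.9 against 19.7, 27.7 and 25.3, 743, 829 and 908 against 307, 248 and 231, and 61.0, 90.8 and 87.8 against 26.1, 22.4 and 26.4 at L5 and L1. Another kind was highest on L5 array 2. *Ecrg4*, a secreted protein precursor, had 65.2, 77.0 and 49.8 at L1 and 221, 978 and 508 at L5 (log2 difference 2.93, adjusted p = 0.000445), and *Slc47a1*, an organic cation exporter, had 117, 177 and 104 and 469.6, 1289 and 913 (log2 difference 2.67, adjusted p = 0.000458). Without L5 arrays 2 and 3 these differences were 1.81 (adjusted p = 0.00979) and 1.86 (adjusted p = 0.0432). *Slc6a20a*, a proline transporter, *Col12a1*, a collagen, and *Igf2* were also highest on L5 array 2, with differences of 1.96, 1.85 and 1.69, which without both arrays were 1.65 (adjusted p = 0.144), 1.06 (adjusted p = 0.0595) and 1.02 (adjusted p = 0.172). *Ms4a4c* and *Plac8*, genes of leukocytes, had 32.1, 117 and 22.0 and 53.0, 224 and 85.9 on the L5 arrays against at most 13.7 and 44.4 on the L1 arrays. Of these genes, the call was lost for *Ms4a4c* without L1 array 1, 2 or 3 (adjusted p up to 0.0862), *Plac8* without L1 array 2 or 3 (adjusted p up to 0.0969), and *Slc6a20a* without L1 array 2 (adjusted p = 0.0702). Genes of neutrophil granules were highest on L5 array 2. *Lcn2* had 47.3, 13.1 and 22.6 at L1 and 42.1, 315 and 107 at L5 and *Ltf* had 239, 74.7 and 162 and 208, 1142 and 607, and both were called higher (log2 differences 2.22 and 1.88, adjusted p = 0.0307 and 0.0494). *S100a8*, which neutrophils also make in quantity, had 439, 74.1 and 167 and 308, 2405 and 776 and was not called (adjusted p = 0.0726). L5 array 1 of these genes lay within the L1 range. *Lcn2* lost its call without L1 array 2 or 3 or L5 array 2 or 3 (adjusted p up to 0.146). *Ltf* lost its call without L1 array 2 or 3 or L5 array 2 or 3 (adjusted p up to 0.219).

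Skeletal muscle genes made up a further kind. *Myh4*, the myosin of fast muscle, had 16.04, 13.9 and 18.1 at L1 and 111, 34.3 and 1132 at L5 (log2 difference 3.35, standard error 0.88, adjusted p = 0.0427), and without L5 array 3 the log2 difference was 1.95 (adjusted p = 0.115). *Ttn* (titin), *Tnnt3* (a troponin), *Myot* (myotilin), *Casq1* (calsequestrin) and *Car3* (carbonic anhydrase 3) had the same highest array and differences of 2.32, 2.45, 2.10, 1.72 and 1.83. The call was lost for *Myh4* without L1 array 1, 2 or 3 or L5 array 3 (adjusted p up to 0.135), *Ttn* without L1 array 1, 2 or 3 or L5 array 3 (adjusted p up to 0.142), *Tnnt3* without L1 array 2 or 3 or L5 array 3 (adjusted p up to 0.13), *Myot* without L1 array 2 or 3 (adjusted p up to 0.0953), and *Car3* without L1 array 1, 2 or 3 or L5 array 2 or 3 (adjusted p up to 0.176). All 16 genes of the muscle list had positive differences, with a median of 1.64, and 6 were called. Without L5 array 3 the median was 0.83 and only *Pvalb* of this list was called, and without L5 array 2 the median was 2.14 with 8 called. Of the 20 largest rises 16 were called without L5 array 3, 19 without L5 array 2 and 10 without both.

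Among other cells, 4 of 18 macrophage genes were higher and none lower, with a median of 0.52. *Adgre1*, which encodes F4/80, had 153, 204 and 179.9 at L1 and 324, 536 and 359.8 at L5 (log2 difference 1.16, adjusted p = 0.000473), and it alone of the 4 was called without L5 array 2 (log2 difference 0.94, adjusted p = 0.000408). *Lyz2*, *C1qb* and *Csf1r* had 574, 1646 and 813, 129.6, 321 and 135 and 1045, 1469.7 and 1266 on the L5 arrays, each highest on array 2. Without L5 array 2 the median of the macrophage list was 0.34, and 1 of its genes was called without L5 array 2 or L5 array 3. Of 14 leukocyte genes, *Cpa3* and *Mcpt4*, both of mast cells, were higher by 1.64 and 0.42. When 1 array was left out, the call ended for *Lyz2* without L1 array 1, 2 or 3 or L5 array 2 or 3 (adjusted p up to 0.148), *C1qb* without L1 array 2 or 3 or L5 array 2 or 3 (adjusted p up to 0.162), *Csf1r* without L1 array 2 or 3 or L5 array 2 or 3 (adjusted p up to 0.181), and *Mcpt4* without L1 array 1 or 3 or L5 array 2 or 3 (adjusted p up to 0.108). Of 21 connective tissue genes, *Ogn*, a matrix proteoglycan, was higher, with 1427, 1587 and 1562 and 2354, 3169.9 and 2362 (log2 difference 0.77, limma adjusted p = 0.00367). This was 4.76% of the list, against 2.62% of all genes, and all 21 had positive differences. Of 15 cartilage and bone genes 4 were higher, *Comp*, *Ibsp* (by 1.30), *Dmp1* (by 0.61) and *Col11a1* (by 0.59), while *Col2a1* and *Acan*, the main matrix genes of cartilage, had differences of -0.028 and -0.012. The part of these cells in the changes of other genes was not tested. None of 14 endothelial, 12 pericyte and smooth muscle, 17 spinal cord and 9 fat cell genes was called with its brightest probe set. However, *Rgs5*, one of the pericyte genes, was called lower at L5 with 3 of its 4 probe sets. With the mean of a gene's probe sets, 1 gene of the pericyte and smooth muscle list was lower.

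The same level comparison in mice that had a wheel took its means from other arrays but came from the same fit. In these mice 1470 probe sets were higher at L5 (3.26%) and 976 lower (2.17%), or, over genes, 3.99% were higher and 3.09% lower. Both comparisons used the same estimate of the spread of a probe set, so their calls are not independent. Without L1 array 1 of the mice without wheel, 3010 probe sets were called with wheel, against 2446 on all arrays. A fit of only the 6 arrays with wheel called 3205. How many calls separate fits would share was not tested. Of the probe sets called without wheel, 447 of the 866 higher ones were also called higher with wheel (51.6%, and 30.4% of the 1470), and 430 of the 1241 lower ones were also called lower (34.6%, and 44.1% of the 976). None that rose without wheel was called lower with wheel, and 2 that fell were called higher, *Decr2*, an enzyme of fatty acid breakdown in peroxisomes (-0.46 without wheel and 0.43 with wheel), and *Bsg*, which encodes basigin (-0.35 and 0.37). In sign, 93.4% of the higher and 84.9% of the lower probe sets went the same way with wheel, as did 57.6% of all probe sets. The 45037 log2 differences of the 2 cage groups had a Pearson correlation of 0.48, which describes probe sets and is not a test. *Hoxc10* and *Comp* had differences of 3.19 and 2.67 with wheel, *Chrna3* and *Chrnb4* of -2.85 and -2.18, and *Gabrg1* of 2.19 (adjusted p = 1.1e-06). *Gal* and *Th* had -1.61 and -1.11. Of the proprioceptor markers 9 were higher with wheel, of the list of peptidergic and itch neuron genes 8 lower, and of the Schwann cell genes 7 higher.

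With wheel, *Pvalb* alone of the muscle list and *C1qc* alone of the macrophage list were called. *Myh4* had 37.8, 15.4 and 13.8 at L1 and 70.2, 14.6 and 18.3 at L5 with wheel (log2 difference 0.41, adjusted p = 0.866), and *Adgre1* had a difference of 0.18 (adjusted p = 0.585). Of the 20 largest rises 11 were called with wheel and all 20 had a positive sign, and of the 20 largest falls 19 were called. The exception was *Kcnip4*, with 0.025 (adjusted p = 0.973). When the 2 level differences were tested against each other, no probe set had an adjusted p under 0.05 by limma, and 5169 had an unadjusted p under 0.05. Without L5 array 1 of the mice without wheel, 216 had an adjusted p under 0.05.

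**Figure D5:**
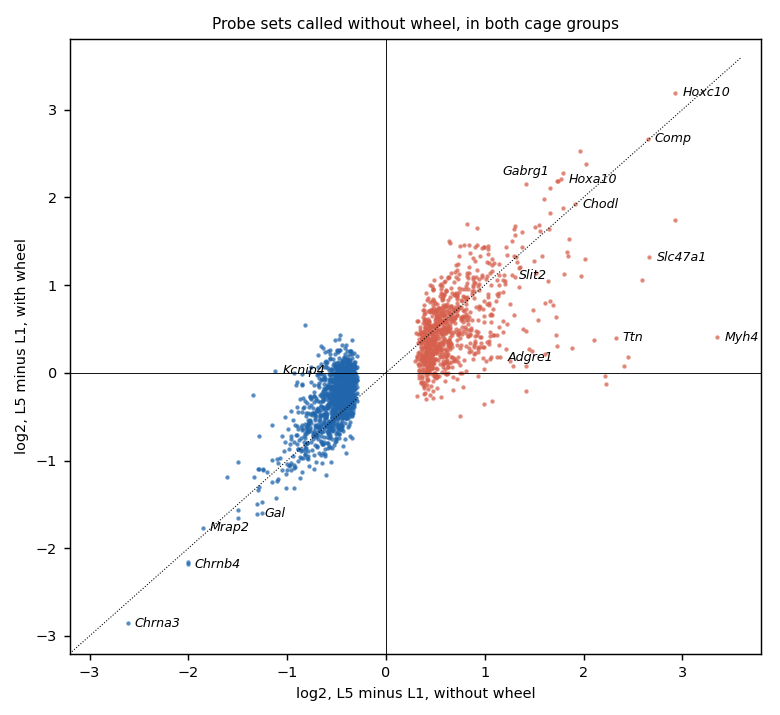
Log2 difference of L5 minus L1 with wheel (y axis) against without wheel (x axis) for the 2107 probe sets called without wheel, red for higher and blue for lower at L5, with a dotted line of equal differences and some genes named. *Chrna3*, *Hoxc10* and *Comp* lie close to the line, whereas *Myh4*, at 3.35 without wheel, lies at 0.41 on the y axis.

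The newborn arrays, which were made from few sorted cells, gave fewer calls between the levels than the adult ganglia. TrkC-positive cells of L1 had 2 arrays, and each other newborn level group had 3. *Eif2s3y* and *Uty*, genes of the Y chromosome, differed by 2.04 and 1.02 in TrkC-positive cells, with standard errors of 1.13 and 0.73. Neither was called (limma adjusted p = 0.634 and 0.739), and an uneven mix of the sexes was not tested. In newborn TrkC-positive cells 120 probe sets were higher at L5 (0.266%) and 59 lower (0.131%), and in TrkC-negative cells 62 were higher (0.138%) and 10 lower (0.0222%). Of the probe sets higher at L5 in the adult, 12 were also higher in newborn TrkC-positive cells (1.39% of the 866 and 10.0% of the 120) and 24 in TrkC-negative cells (2.77% of the 866 and 38.7% of the 62). Of those lower in the adult, 2 were also lower in TrkC-positive cells (0.161% of the 1241 and 3.39% of the 59), of *Shisa6* and *Rspo1*, and 6 in TrkC-negative cells (0.483% of the 1241 and 60.0% of the 10), of *Chrnb4*, *Shisa6*, *Vcan* and *C1qtnf7*. *Gabrg1* was called in TrkC-positive cells with both probe sets (log2 difference 2.84, adjusted p = 0.0281 for the brighter one), while in TrkC-negative cells it had 0.41 (adjusted p = 1). *Npy1r* was called in both, by 1.06 and 2.18, as was *Ntm*, an adhesion protein (by 1.54 and 1.46, and by 1.07 in the adult). *Shisa6* was lower in both, with -1.17 and -0.92. *Gabrb1*, which was lower at L5 in the adult, was called higher at L5 in newborn TrkC-positive cells with its brightest probe set. The log2 difference was 1.26 (limma adjusted p = 0.0233), and its other probe sets were not called there. *Gabra4*, which was not called in the adult, was also higher in these cells (2.09, limma adjusted p = 0.0207), while *Gabra2* was not called.

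*Hoxc10* and *Hoxa10* were called in newborn TrkC-negative cells, with 2.36 (adjusted p = 0.00166) and 1.44 (adjusted p = 0.005), and had 0.83 (adjusted p = 0.253) and 0.90 (adjusted p = 0.0731) in TrkC-positive cells. *Chrnb4* was lower at L5 in TrkC-negative cells (log2 difference -2.12, adjusted p = 0.0233) and had -0.034 in TrkC-positive cells (adjusted p = 0.991), whereas *Chrna3* had -1.28 (adjusted p = 0.417) and -0.38 (adjusted p = 0.844). *Pcdh11x*, *Pcdh19*, *Unc5c*, *Draxin* (a guidance ligand), *Asic1* (an acid-sensing channel), *Adgrl2* (an adhesion receptor) and *Lox* (a collagen cross-linking enzyme) were also higher at L5 both in the adult and in newborn TrkC-negative cells, where the difference of *Adgrl2* was 1.85. *Pvalb*, *Chodl* and *Gal* were not called at birth, with differences of 0.04, 1.55 and 0.46 in TrkC-positive cells (adjusted p = 0.996, 0.444 and 0.333). Whether the level differences of a gene themselves differed between birth and adulthood was not tested, since whole ganglia and sorted cells were fitted apart.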

How the data were processed

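Per the labels and methods, RNA was amplified, hybridised to Affymetrix mouse arrays and read in R v2.9 with affy, and the authors background-corrected, normalised and summarised the probes by RMA. MAS5 calls were not used. The deposited values are linear intensities, 1 a probe set and array, and their log2 was taken without a pseudocount. Of 45101 probe sets, 64 controls were left out. Annotation named 1 gene for 34945 of the others, several for 932 and none for 9160, and only the first kind was named. Fits used limma 3.58.1 in R 4.3.3 (lmFit, eBayes, a mean for each group, no block): all 12 adult arrays, 11 newborn arrays of L5 and L1, and 16 of pooled newborn cells. Differences with a Benjamini-Hochberg adjusted p under 0.05 were called. Scripts were tested on simulated data. Lists (40) used the brightest probe set of each gene over the adult arrays. Whether L5 and L1 arrays of the same number came from the same mouse is not known. Deviations from the group means of same-numbered arrays correlated at -0.24 to -0.054, which with 3 arrays a group cannot settle it. The fits treated the arrays as unpaired.

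Genes named are the 20 largest rises and falls among calls without overlap of the levels (the probe set with the smallest adjusted p), Gabrg1, Ntrk2, Ntrk3, Ret and Pvalb (1 further gene is not reported here), called Hox genes, up to 4 called members of a list with the largest change, and defining markers. Genes of the newborn comparison, genes that lie beside a named gene and further list members were named after their values were seen. Members and lists were chosen with earlier results of these data known. With at most 3 arrays a group, their number limits the precision. Alternatives were a replicate block, quantile normalisation, only brighter probe sets, an intensity trend, fewer arrays, other thresholds, the mean of a gene's probe sets and the methods' t-test.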

Additional observations from a re-analysis of the deposited data

How the results depend on the processing

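Of 123 named genes called, 79 kept direction and call under every alternative chosen at the start, and none of the 123 changed sign. Sign changes of genes that were not called were not counted. When 1 of the 12 adult arrays was left out, 926 to 3139 probe sets were called between L5 and L1 without wheel (443 to 1411 higher, 483 to 1728 lower, against 2107, 866 and 1241), with 926 without L1 array 2, 1216 without L1 array 3, 1298 without L5 array 2, 964 without L5 array 3 and 3139 without L5 array 1. The study thresholds gave 830 to 1439 (944), list genes called were 86 to 177 (141), calls with wheel 1304 to 3010 (2446), and level by wheel calls 0 to 216 (0), the latter without L5 array 1. Newborn TrkC-positive calls were 27 (without TrkC-positive L1 array 1) to 212 (179) and TrkC-negative calls 29 (without TrkC-negative L5 array 1) to 76 (72), and the TrkC-positive shares 23.9% to 40.6% and 7.46% to 11.7%.

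With only the 6 arrays without wheel, 864 probe sets were called (378 higher, 486 lower) and 84 list genes. Without L5 arrays 2 and 3, chosen after seeing the data, there were 310 (177 higher, 133 lower) and 40 list genes. The t-test of the methods selected 491 probe sets at the study thresholds (232 higher, 259 lower) and, after Benjamini-Hochberg adjustment, 0 (0 higher, 0 lower), with 6035 at an unadjusted p under 0.05. With only the brighter probe sets, 624 passed the study thresholds and the level by wheel test called 2. A replicate block gave 111 newborn TrkC-positive calls and changed no other count by more than 1.5 times. Whether the numbers pair the arrays is not known. An intensity trend gave 303 and 147 newborn calls. The cause of these shifts was not tested, beyond fewer arrays or probe sets where the setting removed them.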

Other observations

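Lists of general cell functions differed little between L5 and L1. None of 35 genes of oxidative phosphorylation (log2 differences of -0.21 to 0.16) and none of 21 neurofilament and axonal cytoskeleton genes was called. The heavy neurofilament gene *Nefh* had 4812, 5351 and 5510.1 at L1 and 6606, 6628 and 7134 at L5 without overlap (log2 difference 0.38, limma adjusted p = 0.108). Of 17 sterol synthesis genes, *Dhcr7*, *Mvd* and *Mvk* were lower, with differences of -0.53, -0.45 and -0.38, against none with wheel. Only *Dhcr7* of these was called without L5 array 2 or without L5 array 3. Of 20 nerve injury genes 3 were lower, *Gal*, *Gap43* (a growth cone protein, -0.48) and *Flrt3* (an adhesion protein, -0.46), and *Atf3*, a transcription factor induced by axon injury, had -0.14 (adjusted p = 0.696). *Flrt3* was not called without L5 array 3 (adjusted p = 0.14). Of 19 immediate early genes *Egr2* was higher and *Ier3* lower (log2 difference -0.42), and of 19 clock genes *Bhlhe40* was higher (by 0.42). In these lists 1 gene is 5.26%, near the 2.62% higher and 3.56% lower of all genes, and is no result about the list. Neither *Egr2* nor *Ier3* was called without L5 array 3, and *Bhlhe40* was not called without L5 array 2 or L5 array 3. Of 30 sensory neuron transcription factors 5 were higher, *Shox2*, *Lmo3* (by 0.80), *Esrrg*, *Esrrb* (by 0.52) and *Maf*, and 3 lower, *Isl2* (-0.51), *Etv5* (-0.45) and *Bcl11a* (-0.34). Without L5 array 2 there were 5 and 1 of these, and without L5 array 3 there were 3 and 1, *Etv5* being the lower one in both. Of 27 calcium-binding and synaptic vesicle genes 4 were higher, among them *Syt2*, a fast calcium sensor of release (by 0.59), and 3 lower, but 2 and 2 without L5 array 3. Of 5 erythroid genes, *Car2*, a carbonic anhydrase that proprioceptors also carry, was higher (by 0.52), and none of 4 sex-linked transcripts was called.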
